A study of Homo sapiens with 59 samples.

Results

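The human mitochondrial genome carries 37 genes, and all of them are described here in A549 cells, a human lung carcinoma line, after exposure to herbal extracts. Members were the rows of the deposited table whose gene identifier maps to a symbol beginning with MT-, which gave 37 of 60675 genes: 13 mRNAs for subunits of the respiratory chain and the ATP synthase, 2 ribosomal RNAs and 22 transfer RNAs. Cells had been exposed for 24 h to a DMSO vehicle (3 libraries) or to ethanol extracts of single herbs or of mixed formulas, each at 3 doses called high, medium and low, with 59 libraries in all. The 2 replicates a dose of Coptidis Rhizoma received 110, 22 or 4.4 µg/mL, and those of Zizyphi Fructus 500, 100 or 20 µg/mL. Citri Unshius Pericarpium and Cimicifugae Rhizoma had 3 replicates a dose at 500, 100 and 20 µg/mL, and Bupleuri Radix had 3 at 190, 38 and 7.6 µg/mL. Aconiti Lateralis Radix Preparata had 3, 2 and 3 replicates and the formula Yijung-tang 2 a dose, both at 500, 100 and 20 µg/mL, and the formula Banhasasim-tang had a single library at each of these doses. Where an extract was toxic below the usual top dose, the design text sets the high dose at its IC20, so that dose levels of different extracts are not equal amounts. The labels give the vehicle as 0.1% DMSO in the sample records and 2% in the series text, and do not say whether replicates were separate cultures, so p-values measure only the spread between these libraries. A549 is 1 established line, and no primary cells were included.

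Human mitochondrial DNA is read from both strands into long precursors that run through many genes, and the transfer RNAs lying between the other genes are cut out to release them. The 2 ribosomal RNAs lie nearest the start of the heavy-strand precursor, followed by the mRNAs in the order MT-ND1, MT-ND2, MT-CO1, MT-CO2, MT-ATP8 with MT-ATP6, MT-CO3, MT-ND3, MT-ND4L with MT-ND4, MT-ND5 and MT-CYB, whereas MT-ND6 and 8 transfer RNAs are annotated on the opposite strand. A short element inside the leucine transfer RNA gene MT-TL1, directly after MT-RNR2, is the known binding site of the factor MTERF1. Coptidis Rhizoma is known for berberine and related alkaloids. The classical recipe of Banhasasim-tang includes Coptidis Rhizoma and that of Yijung-tang does not; the make-up of the formulas applied in this study was not described in the labels.

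Transfer RNA genes that lie near the rRNAs, MT-ND5, MT-ND6 and MT-CYB are shown, since these members carry most of the results, from the GENCODE 29 transcripts on GRCh38, written 5′ to 3′. MT-TL1 lies between the rRNA genes and MT-ND1, at chrM:3230-3304 on the plus strand; its capitals mark bases 8 to 20, the 13 bases of the MTERF1 element, which were found on either strand in 1 of the 37 mitochondrial gene sequences. MT-TH and MT-TL2, at chrM:12138-12206 and chrM:12266-12336 on the plus strand, lie between MT-ND4 and MT-ND5. MT-TE, at chrM:14674-14742 on the minus strand, lies between MT-ND6 and MT-CYB. In these 3 the capitals mark the anticodon.
MT-TL1: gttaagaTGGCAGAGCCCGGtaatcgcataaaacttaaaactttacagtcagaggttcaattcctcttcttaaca
MT-TH: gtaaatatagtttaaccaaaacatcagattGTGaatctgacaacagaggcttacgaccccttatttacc
MT-TL2: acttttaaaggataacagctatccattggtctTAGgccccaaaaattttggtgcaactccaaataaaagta
MT-TE: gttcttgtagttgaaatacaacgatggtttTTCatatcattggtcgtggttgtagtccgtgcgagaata

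The transfer RNAs were close to undetected and were not tested. All 22 together received 156 expected counts over the 59 libraries, 12 of them were at 0 throughout, and the highest count of any of them in any library was 7, for the alanine transfer RNA MT-TA. Their genes are 59 to 75 bases long and the reads were 100 bases long, so these counts carry no information on transfer RNA amounts. The 13 mRNAs and 2 rRNAs passed the filter on low counts, and statements on called genes concern these 15.

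Libraries held 17214755 to 39751161 expected counts. Counts in antisense genes were highest in 4 libraries, Citri Unshius Pericarpium high replicate 3 and medium replicate 3 and Cimicifugae Rhizoma low replicate 2 and medium replicate 2, at 3149 to 4601 CPM (counts scaled to a common library size) against 2762 to 2806 in vehicle. Both Coptidis Rhizoma high libraries came next, at 3133 and 3137 CPM. None of these 4 belongs to Coptidis Rhizoma, Banhasasim-tang or vehicle, but they enter the shared estimate of the spread. The keratins KRT8 and KRT18 and the A549 enzymes ALDH1A1, AKR1B10 and AKR1C1 were present in every library, EPCAM was low at 2.47 to 8.77 CPM, and CDKN2A, deleted in this line, did not exceed 0.495 CPM. Of 8 markers of other cell types, COL1A1 reached 70.3 CPM and COL3A1 2.67 CPM, and the other 6 did not exceed 0.168 CPM. At the high dose of Coptidis Rhizoma KRT8, KRT18 and ALDH1A1 were called lower than in vehicle, by -0.82, -0.75 and -0.22 (log2), and COL3A1 by -1.11; their part in the results below was not tested.

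Mitochondrial genes took 7.79% to 8.54% of the counts in vehicle. They took 9.04% to 16.9% in the 6 Coptidis Rhizoma libraries, 11.8% to 20.9% in the 3 of Banhasasim-tang and 3.22% to 12.4% in the 47 libraries of the other 6 extracts. The lowest of these was Citri Unshius Pericarpium high replicate 3, one of the 4 libraries rich in antisense counts. The rRNA and mRNA parts of this sum differed: rRNA took 6.09% to 11.2% in Coptidis Rhizoma against 1.24% to 3.25% in the other 50 libraries including vehicle, while mRNA took 5.55% to 6.19% in vehicle. The mRNA share in Coptidis Rhizoma lay below vehicle at the high dose (3.14% and 2.95%) and the medium dose (4.69% and 3.81%) and above it at the low dose (7.58% and 6.70%). In the other 6 extracts it was 1.98% to 9.18% with a median of 7.13%, so the low-dose values lay within their range. Apart from Citri Unshius Pericarpium high replicate 3, at 1.98%, these extracts had 4.73% or more. Zizyphi Fructus at the low dose had 7.72% and 5.85%. In bulk RNA, fewer transcripts per cell and a smaller share of all transcripts cannot be told apart, and every level given here is a share of its library.

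**Figure D1:**
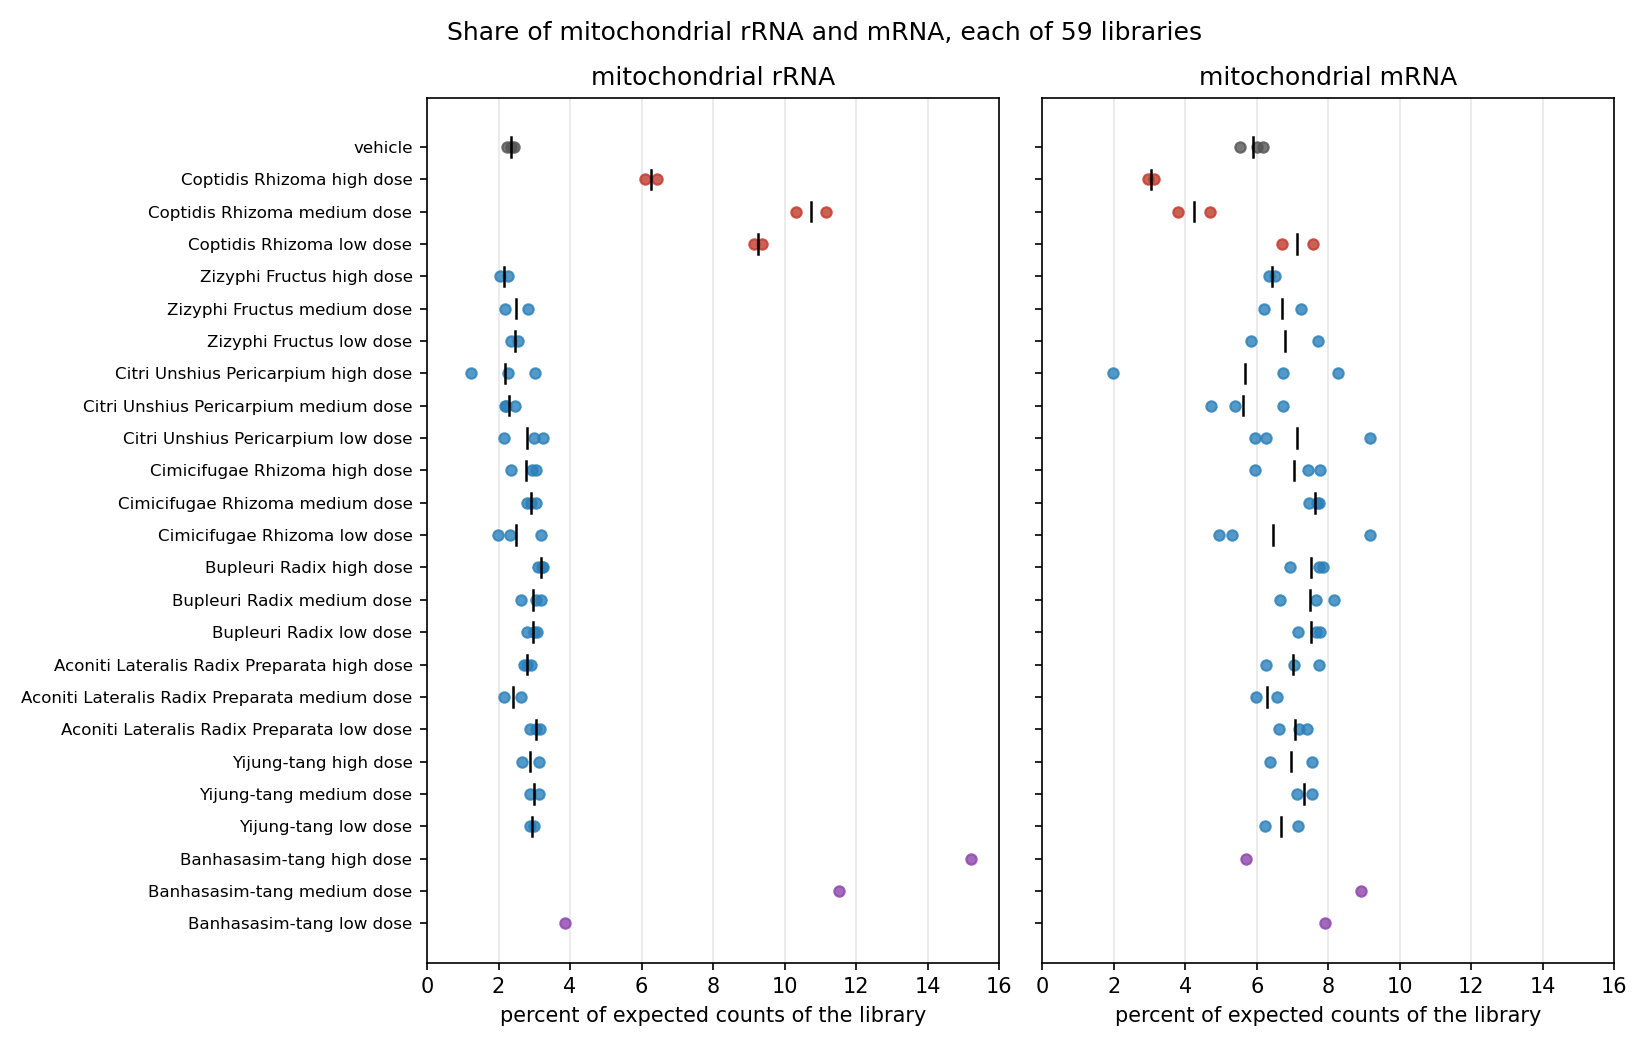
Each point is 1 library; the x axes give the percent of its expected counts in the 2 mitochondrial rRNAs (left) and the 13 mRNAs (right), rows are groups, and short black lines are group means. Red is Coptidis Rhizoma, purple Banhasasim-tang, grey vehicle and blue the other extracts; rRNA in red and purple lies at 3.87% or more and no other library passes 3.25%.

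In vehicle cells the mRNA levels differed with position only loosely. Per kilobase of gene, MT-CO3 (12113 CPM per kb), MT-CO1 (9761), MT-CO2 (7440) and MT-ATP6 (6247) were the most abundant mRNAs. The first 3 encode the subunits of cytochrome c oxidase that come from mitochondrial DNA, and MT-ATP6 encodes a subunit of the ATP synthase. MT-ND6 was the least abundant at 533 CPM per kb, followed by MT-ATP8 (1251), whose reading frame overlaps MT-ATP6 so that the split of reads between them is uncertain, and MT-ND5 (1453). The 16S rRNA gene MT-RNR2 stood at 13782 CPM per kb and the 12S rRNA gene MT-RNR1 at 1636. Mature rRNAs carry at most short tails and the kit prepared mRNA libraries, so the rRNA values are levels in these libraries and not cellular abundances.

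At the medium and low dose of Coptidis Rhizoma, mean levels of the rRNAs, the middle mRNAs and the last mRNAs of the precursor differed from vehicle in different ways. At the low dose no mitochondrial gene was called lower. At the high dose only the 2 rRNAs had log2 fold changes above 0, and all 13 mRNAs lay below vehicle. Against vehicle, edgeR's quasi-likelihood test with Benjamini-Hochberg adjustment called 6 of the 15 genes at the high dose (2 higher and 4 lower), where 12.6% of all 18568 genes tested were called, 6.41% higher and 6.14% lower. It called 7 at the medium dose (4 higher and 3 lower), where 3.27% of all genes were called, 1.76% higher and 1.51% lower. It called 5 at the low dose, all higher, where 0.447% of all genes were called and 0.302% were called higher. The counts rest on both replicates: without Coptidis Rhizoma high replicate 2 or 3 the high dose had 2 or 3 calls, and the medium dose had 2 or 4 without its replicate 2 or 3 and 4 without vehicle replicate 3. The median log2 fold change of the 15 was -0.92, -0.98 and -0.05 at the high, medium and low dose, against medians within 0.01 of 0 over all genes. Both rRNAs were called higher at every dose.

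**Figure D2:**
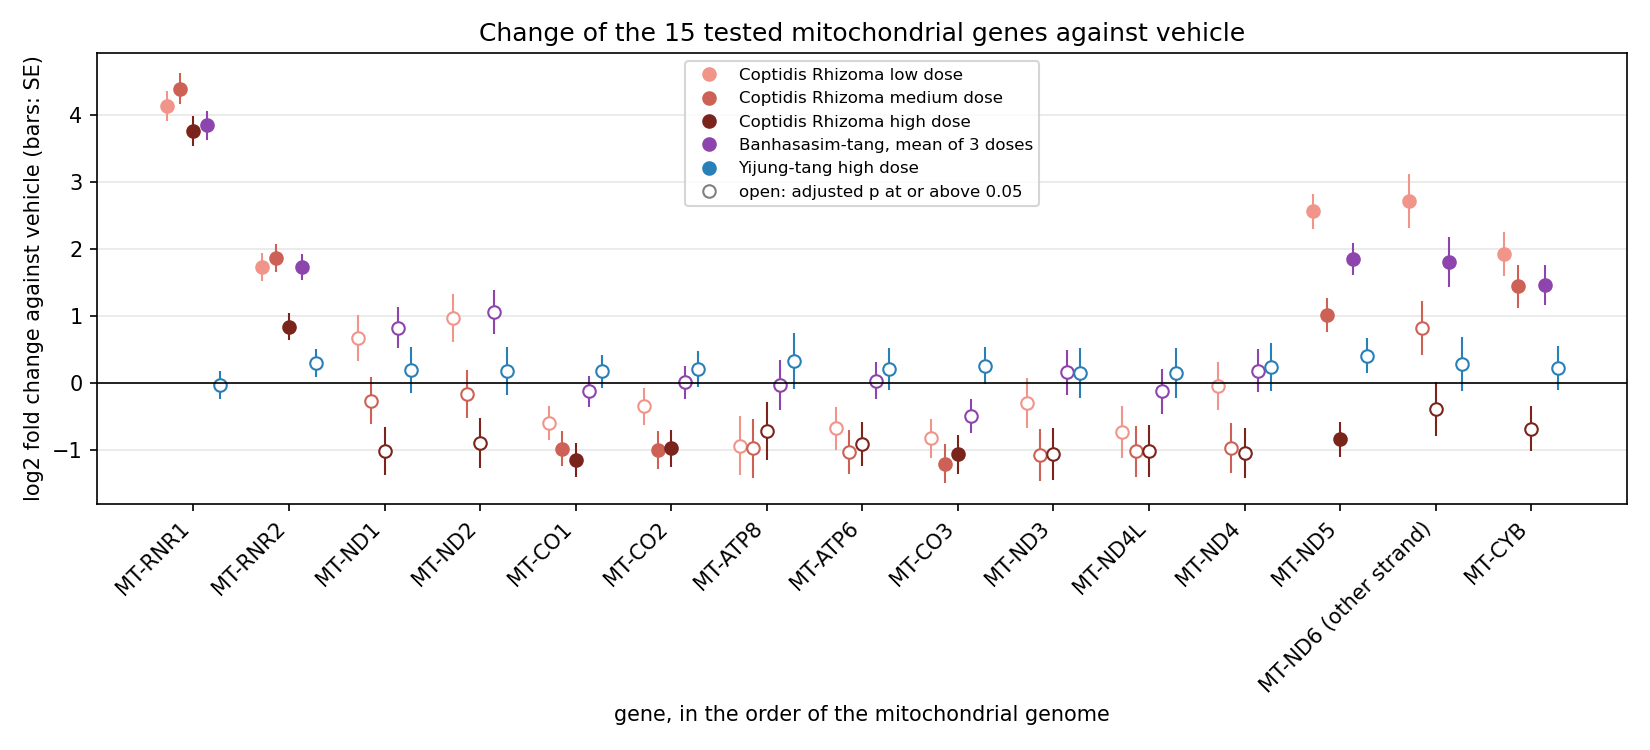
Log2 fold change against vehicle (y axis; bars are standard errors) of the 15 tested genes in genome order (x axis), for the 3 doses of Coptidis Rhizoma, the mean over doses of Banhasasim-tang and, for comparison, Yijung-tang at the high dose; filled points have an adjusted p below 0.05. The rRNAs lie above 0 in both Coptidis Rhizoma and Banhasasim-tang, the genes from MT-CO1 to MT-ND4 lie at or below 0 in Coptidis Rhizoma, and MT-ND5, MT-ND6 and MT-CYB spread with dose.

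MT-RNR1, the RNA of the small mitochondrial ribosomal subunit, showed the largest change. Its level was 1617, 1447 and 1619 CPM in the 3 vehicle libraries. It was 21406 and 20682 CPM at the high dose of Coptidis Rhizoma, 33123 and 32095 at the medium and 27658 and 26892 at the low dose. The 6 treated libraries lay far above vehicle and replicates of a dose differed little. The log2 fold change was 3.75 ± 0.22 (SE; 13.5-fold) at the high dose, 4.38 ± 0.23 (20.9-fold) at the medium and 4.13 ± 0.23 (17.5-fold) at the low dose, with edgeR adjusted p of 8.84e-16, 3.65e-17 and 2.14e-16. In Zizyphi Fructus, whose libraries carry the same set code in the labels as those of Coptidis Rhizoma, it was 1384 and 1695 CPM at the high, 1519 and 2150.1 at the medium and 1711 and 1681 at the low dose. Within that set the difference was as large, with log2 fold changes of 3.77 ± 0.26, 4.15 ± 0.27 and 4.01 ± 0.26 (SE) for the 3 doses and edgeR adjusted p of 1.69e-13, 5.11e-14 and 1.32e-13.

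MT-RNR2, the RNA of the large subunit, rose by less. It was at 22429, 20386 and 21642 CPM in vehicle. It was at 39975 and 36702 CPM at the high dose of Coptidis Rhizoma, 83302 and 72948 at the medium and 72060.4 and 69663 at the low dose. All 6 were above vehicle, and the high dose was the lowest of the 3. Zizyphi Fructus had 18319 and 20460.4 CPM at the high, 19805 and 26129 at the medium and 23345 and 20930.2 at the low dose. The log2 fold change against vehicle was 0.84 ± 0.21, 1.86 ± 0.21 and 1.72 ± 0.21 (SE) from the high to the low dose, with edgeR adjusted p of 0.00432, 5.21e-08 and 1.26e-06, and the high dose was below the low dose by -0.89 ± 0.23 (adjusted p = 0.0263). That call was lost in 4 of 12 alternative analyses (highest adjusted p 0.284, without Coptidis Rhizoma high replicate 3), and the call against vehicle at the high dose without its replicate 2 (adjusted p = 0.0543).

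Because both rRNAs come from 1 precursor, their ratio was compared within libraries. Vehicle held 13.4 to 14.1 counts of MT-RNR2 for each of MT-RNR1, and the 47 libraries of the other 6 extracts held 8.62 to 17.8. The ratio was 1.87 and 1.78 at the high dose of Coptidis Rhizoma, 2.52 and 2.27 at the medium and 2.61 and 2.59 at the low dose. Banhasasim-tang had 2.66, 2.62 and 4.61 from high to low. The 9 libraries of these 2 extracts did not overlap with the other 50. A ratio within a library shows unequal change of the 2 rRNAs and is independent of the library's total. The 10 RNAs known to lack a poly(A) tail, the noncoding RNAs and histone mRNAs that passed the filter, had 0 calls at each dose against vehicle in edgeR. Calls among everything tested came to 12.6% (high), 3.27% (medium) and 0.447% (low). With only 10 such RNAs, 0 calls cannot be told apart from these shares. The summed level of all 20 such RNAs listed was 22.1 to 33.5 CPM in Coptidis Rhizoma. Vehicle libraries differed widely among themselves, at 92.5, 118 and 22.8 CPM, so this sum cannot show whether these RNAs changed. The part of library preparation or tail length in the rRNA values was not tested.

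The 8 neighbouring mRNAs from MT-CO1 to MT-ND4 had means below vehicle at the 3 doses, and MT-CO1, MT-CO2 and MT-CO3 among them fell at the high and the medium dose. MT-ND4 at the low dose overlapped vehicle, with 7799 and 6657 CPM against 7307, 6613 and 8559. Summed over the 8 genes, a stretch chosen after its values were seen, vehicle had 43993 ± 2218 CPM (SD, n = 3). Coptidis Rhizoma had 21028 ± 993, 21373 ± 3523 and 30934 ± 2119 CPM from the high to the low dose (SD, n = 2 each), and Zizyphi Fructus means were 47465 to 50481. All 6 Coptidis Rhizoma libraries were below every vehicle library. MT-CO1 was at 15737, 14496 and 14921 CPM in vehicle and at 6960 and 6555 at the high, 8204 and 6976 at the medium and 10268 and 9524 at the low dose. MT-CO1 had a log2 fold change of -1.16 ± 0.26 (SE) at the high and -0.99 ± 0.26 at the medium dose, with edgeR adjusted p of 0.00169 and 0.0223. MT-CO2 had -0.98 ± 0.28 and -1.01 ± 0.28 (adjusted p 0.0149 and 0.0366), and MT-CO3 -1.07 ± 0.29 and -1.21 ± 0.29 (0.0102 and 0.0115). The high-dose call of MT-CO1 held in 12 of 12 alternatives (highest adjusted p 0.048). Its medium-dose call was lost in 4 of 12 (highest adjusted p 0.309, without Coptidis Rhizoma medium replicate 3). The calls of MT-CO2 were lost in 2 of 12 at the high dose and 5 of 12 at the medium (highest adjusted p 0.141 and 0.414), and those of MT-CO3 in 2 of 12 at each (0.139 and 0.274), without replicate 3 of the dose in each case.

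The other 5 of these genes had values of like size with larger standard errors. At the high dose MT-ATP6, MT-ND3, MT-ND4L and MT-ND4 had log2 fold changes of -0.92, -1.07, -1.02 and -1.05, with edgeR adjusted p of 0.0554, 0.063, 0.0789 and 0.0534. MT-ATP8 had -0.72 (adjusted p = 0.324). Without the 4 libraries of highest antisense counts 13 of the 15 genes were called at the high dose (2 higher and 11 lower), where that fit called 27.9% of all genes, and 11 at the medium (4 and 7), where it called 12.4%. Against Zizyphi Fructus at the high dose the 2 rRNAs were higher and MT-CO1, MT-CO2, MT-CO3, MT-ND4 and MT-ND5 lower, where 8.12% of all genes were called, 4.1% higher and 4.02% lower. Of 12 alternatives, the MT-ND5 call was lost in 6, those of MT-ND4 and MT-CO2 in 4 each, MT-CO3 in 3 and MT-CO1 in 2. MT-RNR2 lost its call in 1 and MT-RNR1 in 0. At the medium dose the 2 rRNAs were higher and MT-CO1, MT-CO2, MT-CO3 and MT-ATP6 lower, where 1.81% of all genes were called, 0.986% higher and 0.829% lower. Leaving out any 1 of the 4 libraries compared left 2 or 3 calls at the high dose and 2 to 4 at the medium. At the medium dose MT-ATP6 and MT-CO1 were each lost in 4 of 12 alternatives (highest adjusted p 0.449 and 0.311, both without Coptidis Rhizoma medium replicate 3).

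MT-ND5, MT-ND6 and MT-CYB, the last mRNA genes of the circle, rose at the low dose and not at the high dose. MT-ND1 and MT-ND2, near the start, followed the same dose order with smaller differences and were not called against vehicle at any dose. Their sum, also chosen after its values were seen, was 7488 ± 1002 CPM in vehicle (SD, n = 3). At the high, medium and low dose of Coptidis Rhizoma it was 3835 ± 175, 6412.7 ± 1066.5 and 13143 ± 1271 CPM (SD, n = 2 each). Both low-dose libraries, at 14042 and 12244 CPM, were above every vehicle library and above Zizyphi Fructus, whose libraries reached 10992 CPM. They lay within the 2768 to 14410 CPM of the 50 libraries of vehicle and the other 6 extracts. MT-ND5, which encodes a large proton-pumping subunit of complex I, was at 2887, 2552 and 2461 CPM in vehicle. It was at 1574 and 1352 CPM at the high dose of Coptidis Rhizoma, 5967 and 4633 at the medium and 16846 and 14188 at the low dose. The order of the doses was the same in both replicates, with vehicle between the high and the medium dose. Zizyphi Fructus had 2588 and 2835 CPM at the high, 2651 and 2855 at the medium and 3439 and 2550.3 at the low dose. The log2 fold change of MT-ND5 against vehicle was -0.85 ± 0.27, 1.01 ± 0.26 and 2.56 ± 0.26 (SE) from the high to the low dose, with edgeR adjusted p of 0.0282, 0.0165 and 4.4e-08. Leaving out single libraries and other alternatives ended the high-dose call in 4 of 12 cases and the medium-dose call in 3 of 12, and ended the low-dose call in 0 of 12. The highest adjusted p was 0.267 at the high dose, without Coptidis Rhizoma high replicate 3, and 0.297 at the medium, without its replicate 2.

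MT-CYB encodes cytochrome b of complex III and is the last mRNA gene on its strand. Vehicle had 3755, 3328 and 4322 CPM. Coptidis Rhizoma had 2484 and 2236 CPM at the high dose, 11417 and 9163 at the medium and 15249 and 13461 at the low dose. The medium and low doses were well above every vehicle library and the high dose below them. Zizyphi Fructus had 4309 and 4213 CPM at the high, 3981 and 4965 at the medium and 4986 and 4023 at the low dose. The log2 fold change was 1.44 ± 0.32 at the medium and 1.92 ± 0.33 at the low dose (SE; edgeR adjusted p 0.00541 and 5.69e-04), and -0.69 ± 0.34 at the high dose (adjusted p = 0.2). Without Coptidis Rhizoma medium replicate 2 the medium-dose call was lost (adjusted p = 0.122).

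MT-ND6 is the only mRNA gene of the opposite strand and lies between MT-ND5 and MT-CYB. Its level was 340 CPM, 258 and 241.4 in vehicle. It was 234 and 192 CPM at the high dose of Coptidis Rhizoma, 569 and 416 at the medium and 2181 and 1481 at the low dose. The 2 low-dose libraries stood far above all vehicle libraries. Zizyphi Fructus had 249 and 271 CPM at the high, 228 and 258 at the medium and 415 and 236 at the low dose. The log2 fold change was 2.71 ± 0.40 (SE) at the low dose (edgeR adjusted p = 7.16e-05), and 0.81 ± 0.40 and -0.39 ± 0.41 at the medium and high doses (adjusted p 0.352 and 0.626). The library kit is directional, but a strand setting for the counting was not given in the sources used here, so reads of MT-ND6 and of RNA from the facing strand of that stretch cannot be told apart. The ratio of MT-ND6 to MT-ND5 counts was 0.0981 to 0.118 in vehicle and 0.0897 to 0.149 in Coptidis Rhizoma, a narrower range than that of either gene. Against Zizyphi Fructus at the low dose MT-RNR1, MT-RNR2, MT-ND5 (2.37 ± 0.30), MT-ND6 (2.49 ± 0.46) and MT-CYB (1.67 ± 0.37) were the 5 called members, all higher, where 0.194% of all genes were called and 0.14% were called higher. Leaving out any 1 of the 4 libraries left 3 or 4 calls: MT-CYB was lost in each case and MT-ND6 in 2, with adjusted p up to 0.768 and 0.485, both without Zizyphi Fructus low replicate 3.

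**Figure D3:**
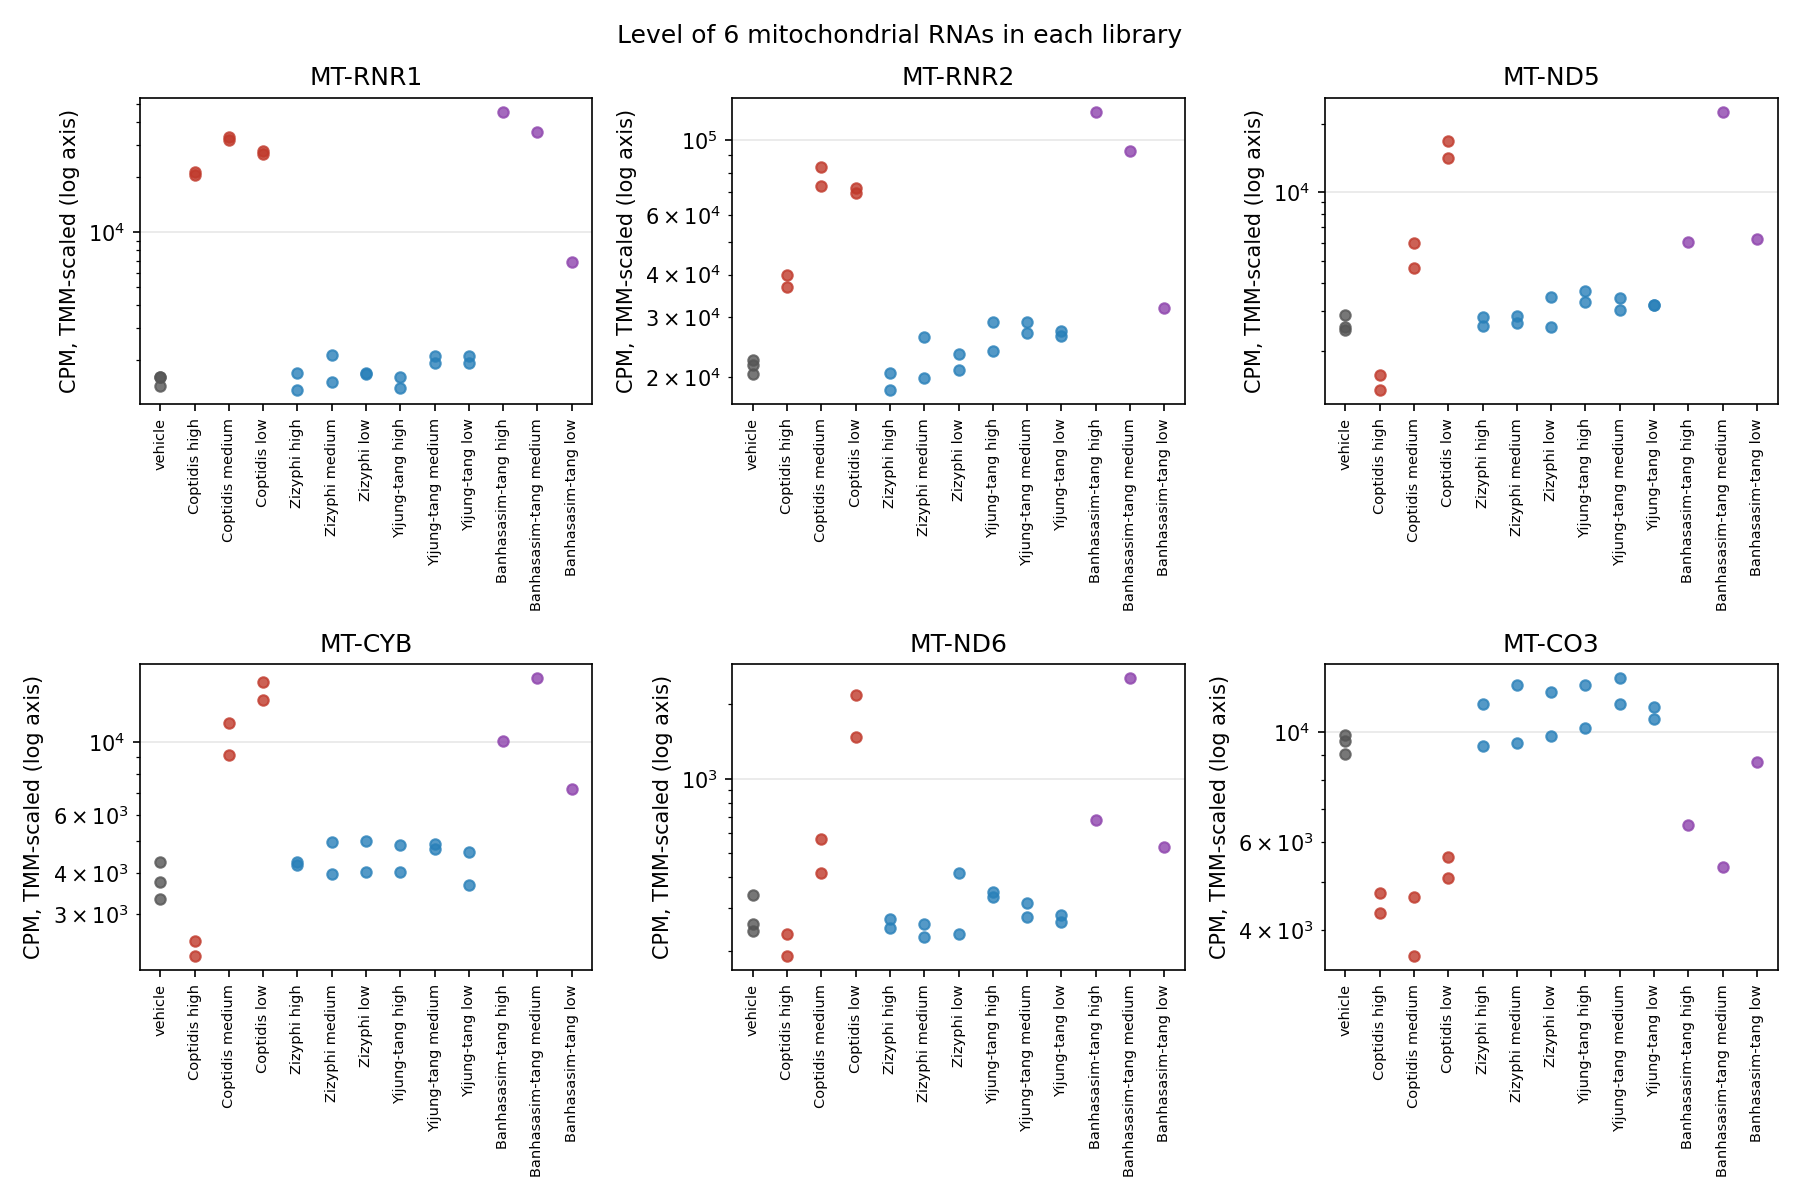
CPM on log axes for MT-RNR1, MT-RNR2, MT-ND5, MT-CYB, MT-ND6 and MT-CO3; each point is 1 library, grouped by extract and dose on the x axis (grey vehicle, red Coptidis Rhizoma, purple Banhasasim-tang, blue Zizyphi Fructus and Yijung-tang). MT-ND5 lies at 16846 and 14188 CPM at the low and at 1574 and 1352 CPM at the high dose of Coptidis Rhizoma, while MT-RNR1 lies at 20682 CPM or more at all 3 doses.

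The doses of Coptidis Rhizoma differed most in these last genes. Between the high and the low dose 6 mitochondrial genes were called, all lower at the high dose, where 2.31% of all genes were called and 1.38% were called lower. MT-ND5 differed by -3.41 ± 0.31 (SE, log2; edgeR adjusted p = 1.46e-09), MT-ND6 by -3.10 ± 0.48 (4.98e-05) and MT-CYB by -2.60 ± 0.38 (2.52e-05). MT-ND2 and MT-ND1, complex I subunits encoded directly after the rRNAs, differed by -1.86 ± 0.41 and -1.69 ± 0.39 (adjusted p 0.00616 and 0.00951), and MT-RNR2 was also called. Without Coptidis Rhizoma high replicate 2 or 3 or low replicate 2, 3 genes were called. In comparisons added after seeing the data, MT-CYB and MT-ND5 were lower at the high than at the medium dose (-2.12 and -1.86), where 0.0485% of all genes were called and 0.0377% were called lower, and MT-ND5 was lower at the medium than at the low dose (-1.55), where 0.0269% of all genes were called and 0.0215% were called lower. Both counts were 0 without some of the libraries: the former without Coptidis Rhizoma high replicate 2 or 3 or medium replicate 2, the latter without any 1 of the 4. The change from low to high dose was set against that in Zizyphi Fructus in a single added contrast: MT-ND5 differed by -3.26 ± 0.41 (adjusted p = 8.23e-06), MT-CYB by -2.52 ± 0.52 (0.015) and MT-ND6 by -2.78 ± 0.63 (0.0331), and 0.355% of all genes were called and 0.232% were called lower. For MT-CYB and MT-ND6 the call of this contrast was lost in 8 of 16 alternatives, the 8 that leave out a single library, with adjusted p up to 0.159 and 0.351, and for MT-ND5 in 0 of 16.

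Within the mitochondrial mRNA pool the composition differed between doses. MT-ND5 made up 4.54% ± 0.46 of mitochondrial mRNA counts in vehicle (SD, n = 3) and 5.05% ± 0.28, 12.1% ± 0.16 and 20.4% ± 0.58 at the high, medium and low dose of Coptidis Rhizoma (SD, n = 2 each). MT-CYB made up 6.51% ± 0.48 in vehicle and 8.16% ± 0.17, 23.5% ± 0.24 and 18.9% ± 0.09 at the 3 doses. MT-CO1 made up 25.9% ± 1.3 in vehicle and 23.4% ± 0.25, 17.4% ± 0.89 and 13.1% ± 0.52. MT-ND6 made up 0.482% ± 0.0895 in vehicle and 0.735% ± 0.0656 at the high dose. At the high dose MT-ND5, MT-CYB and MT-ND6 thus lay above the vehicle mean by more than the vehicle SD, and MT-CO1 lay below it by more than that. The shares of MT-ND5, MT-CYB and MT-CO1 were nearer to vehicle at the high dose than at the other doses of Coptidis Rhizoma. Other extracts also differed from vehicle by more than this SD. Mean MT-ND5 was 5.18% in Yijung-tang high and mean MT-CO1 22.5% in Aconiti Lateralis Radix Preparata high, both further from vehicle than Coptidis Rhizoma high. The highest MT-CYB and MT-ND6 means of the other 6 extracts were below it. They were 7.73% (Aconiti Lateralis Radix Preparata medium) and 0.678% (Cimicifugae Rhizoma low). The counts of MT-CYB for each count of MT-ND4 were 0.503 to 0.514 in vehicle, 0.656 and 0.649 for the high dose, 2.62 and 2.82 for the medium dose and 1.96 and 2.02 for the low one.

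**Figure D4:**
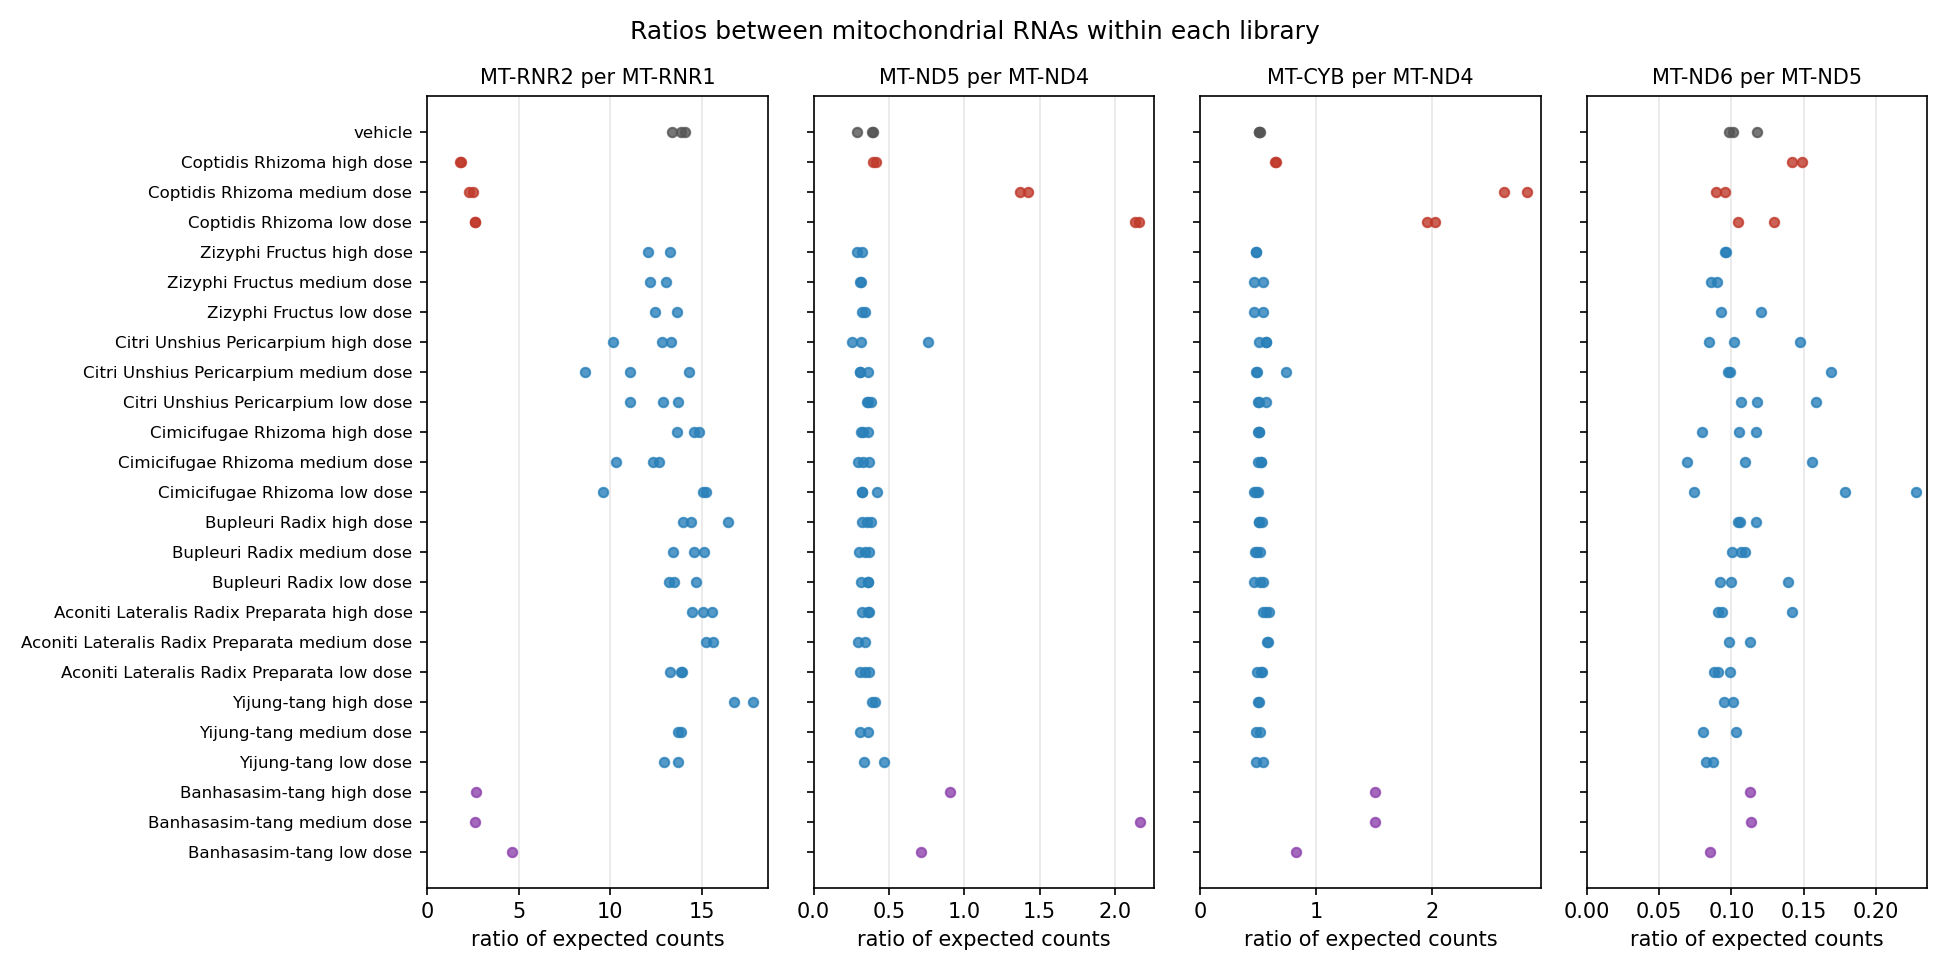
Ratios of expected counts within each library (x axes) for 4 pairs of mitochondrial RNAs, with groups as rows and 1 point per library; colours mark Coptidis Rhizoma (red), Banhasasim-tang (purple), vehicle (grey) and the other extracts (blue). For MT-RNR2 per MT-RNR1 the red and purple points lie at 4.61 or less and all others at 8.62 or more, and MT-ND6 per MT-ND5 shows no such gap.

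Banhasasim-tang showed higher rRNA and higher MT-ND5, MT-ND6 and MT-CYB, with 1 library a dose. MT-RNR1 was at 45486 CPM at the high dose, 35462 at the medium and 6891 at the low dose. MT-RNR2 was at 120832, 92826 and 31795 CPM. Both were above vehicle in all 3 libraries. MT-ND5 was at 6051 CPM at the high, 22532 at the medium and 6217 at the low dose. MT-CYB was at 10052, 15643 and 7182 CPM, and MT-ND6 at 684, 2554 and 528 CPM. For these 3 mRNAs the medium dose was the highest. MT-ND1 and MT-ND2 summed to 10326, 17845 and 15956 CPM from high to low, above all vehicle libraries, and neither gene was called in the test that follows. The mRNAs from MT-CO1 to MT-ND4 summed to 35136 CPM at the high, 40495 at the medium and 49327 at the low dose, and only the last of these lay above all vehicle libraries. All 3 sums lay within the 15325 to 69321 CPM of those 50 libraries.

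The single libraries allow no test of a dose, so the mean over the 3 doses was compared with vehicle in the model of all libraries, which takes the spread from the other groups. It called 5 of the 15 genes, all higher, where 4.01% of all genes were called and 1.97% were called higher: MT-RNR1 by 3.84 ± 0.21 (SE, log2; edgeR adjusted p = 4.51e-16), MT-ND5 by 1.85 ± 0.24 (2.16e-06), MT-ND6 by 1.80 ± 0.37 (0.00237), MT-RNR2 by 1.72 ± 0.19 (9.5e-08) and MT-CYB by 1.45 ± 0.30 (0.00246). Yijung-tang, the formula with the same set code, had MT-RNR1 at 1632 and 1416 CPM at the high, 1934 and 2119 at the medium and 1924 and 2104 at the low dose. MT-RNR2 was there at 29065 and 23744, 26825 and 29034, and 26334 and 27225 CPM. MT-ND5 was at 3688 and 3269, 3037 and 3403, and 3197 and 3172 CPM, MT-CYB at 4848 and 4031, 4716 and 4897, and 4638 and 3680.3 CPM, and MT-ND6 at 349 and 330.4, 313 and 274, and 280 and 262 CPM. Each Banhasasim-tang library was above all 6 of Yijung-tang for these 5 genes. They were picked as the called members, and the share of all genes separated in this way was not counted, so this adds no support to the calls. Against Yijung-tang the 5 called members were MT-RNR1 (3.60 ± 0.16), MT-ND6 (1.70 ± 0.30), MT-ND5 (1.52 ± 0.19), MT-RNR2 (1.39 ± 0.16) and MT-CYB (1.22 ± 0.25), where 1.22% of all genes were called and 0.738% were called higher. The 2 contrasts share the Banhasasim-tang libraries. Without the medium-dose library 3 of the 5 were called against Yijung-tang, and MT-CYB and MT-ND6 were not (adjusted p 0.107 and 0.195); against vehicle MT-ND6 was not called without it (adjusted p = 0.125).

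The other 6 extracts had 0 mitochondrial genes called in their 18 comparisons with vehicle, in edgeR with the spread shared over all libraries. Of all genes, 0.377% and 0.0269% were called at the high and medium dose of Cimicifugae Rhizoma, 4.42% at the high and 0.00539% at the low dose of Citri Unshius Pericarpium, 3.36% and 0.00539% at the high and medium dose of Bupleuri Radix, 4.65% and 17.5% at those of Aconiti Lateralis Radix Preparata, 1.37% and 0.0108% at those of Yijung-tang and 0% in the other comparisons. At an unadjusted p below 0.05 the number of mitochondrial genes was 0 to 3, DESeq2 also called 0 in each, and the smallest adjusted p was 0.224, for MT-RNR2 at the high dose of Bupleuri Radix. Log2 fold changes ran from -0.53 to 1.31. The highest was MT-ATP8 at the low dose of Citri Unshius Pericarpium, with 1240 CPM in replicate 3 against 288 and 399 in the others. All 15 genes had positive fold changes at all 3 doses of Bupleuri Radix, from 0.13 to 0.95 with medians of 0.39 to 0.44. The same held in 5 of the other 15 comparisons, and in 5 more 14 of 15 were positive. All 18 comparisons share the 3 vehicle libraries, the only ones with their set code, so a difference of these libraries from the rest and an effect of the extracts cannot be told apart. In a fit of only Bupleuri Radix and vehicle libraries 13, 13 and 12 genes were called higher at the high, medium and low dose, where that fit called 13.4%, 5.81% and 5.33% of its genes higher, so that 0 calls does not show that levels were equal. Such fits called 6, 4 and 5 genes higher for Aconiti Lateralis Radix Preparata (11.5%, 21.4% and 3.39% of all genes higher) and 4, 4 and 2 for Yijung-tang (9.03%, 0.81% and 1.34%). The 6 comparisons of high with low dose and the 2 between extracts of 1 set that leave out Coptidis Rhizoma and Banhasasim-tang also had 0 mitochondrial calls. Of all genes, high against low called 3.54% in Citri Unshius Pericarpium, 0.221% in Cimicifugae Rhizoma, 1.58% in Bupleuri Radix, 3.29% in Aconiti Lateralis Radix Preparata, 0.431% in Yijung-tang and 0% in Zizyphi Fructus; Citri Unshius Pericarpium against Cimicifugae Rhizoma called 7.67% and Bupleuri Radix against Aconiti Lateralis Radix Preparata 1.33%. Without Citri Unshius Pericarpium high replicate 2 or 1, 6 or 2 mitochondrial genes were called in that extract's high against low, and without replicate 2, 4 against Cimicifugae Rhizoma.

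Nuclear genes for mitochondrial functions are given by list, to be read against the 12.6%, 3.27% and 0.447% of all genes called at the high, medium and low dose of Coptidis Rhizoma. All called members had fold changes below 1 on the log2 scale in size. Of 10 genes for mitochondrial transcription, such as the polymerase and its initiation and termination factors, 0 were called at any dose, with medians of -0.13, -0.11 and -0.11 (log2) from high to low. Of 20 genes for RNA processing and decay, 1 was higher and 2 were lower at the high dose and 0 at the others, a share near that of all genes. NSUN4, a methyltransferase of the mitochondrial ribosome, had 0.27 ± 0.08, ELAC2, which cuts the 3′ ends of mitochondrial transfer RNAs, -0.30 ± 0.08, and FASTKD5, which acts on junctions that lack a transfer RNA, -0.45 ± 0.15 (SE; edgeR adjusted p 0.0167, 0.00898 and 0.0454). Of 13 genes for mitochondrial DNA replication, TK2, a nucleoside kinase, was higher at the high dose (0.39, adjusted p = 0.0302).

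Nuclear subunits of the respiratory complexes had 0 calls of 37 in complex I, 0 of 9 in complex III and 0 of 11 in complex IV at each dose against vehicle, beside 12.6% of all genes at the high dose; at the medium and low dose, where 3.27% and 0.447% of all genes were called, 0 in lists of this size is near the share of all genes. In complex V, 1 of 15 was called, ATP5MC3, lower by -0.53 at the high dose (edgeR adjusted p = 0.0359). Of 78 mitoribosomal proteins, MRPL17 (-0.86) and MRPL44 (-0.38) fell and MRPS10 rose (0.30) at the high dose, beside 12.6% of all genes, and 0 were called at the others. Among 13 mitochondrial chaperones and proteases, HSPA9 and LONP1 rose at the high dose (0.43 and 0.53; adjusted p 3.04e-05 and 0.00399) and HSPE1 and HSPD1 fell (-0.73 and -0.35; 0.00126 and 0.00432), which is 4 of 13 beside 12.6% of all genes. At the medium dose, where 3.27% of all genes were called, HSPA9 (0.26, adjusted p = 0.0342) rose and HSPD1 (-0.33, adjusted p = 0.0225) fell.

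Pieces of mitochondrial DNA copied into nuclear chromosomes can take reads from the mitochondrial genes. Of 404 genes annotated as such copies in the count matrix, 10 passed the filter, and the 404 together had 0.344 to 0.558 counts for every 100 counts of mitochondrial genes in Coptidis Rhizoma and 0.945 to 1.09 in vehicle. MTCO1P12 on chromosome 1, a copy of MT-CO1, was called lower at the high dose (-1.15 ± 0.22, edgeR adjusted p = 2.79e-04) and the medium dose (-0.94 ± 0.22, adjusted p = 0.00893), next to -1.16 and -0.99 for MT-CO1 itself. MTND2P28, a copy of MT-ND2, was lower at the high than at the low dose by -1.84 ± 0.45 (adjusted p = 0.0162), next to -1.86 for MT-ND2. Reads of such near-identical pairs may be split in the counting, and neither member of a pair is independent of the other.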

How the data were processed

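Messenger RNA libraries from total RNA of A549 cells (directional kit, 100 bp paired-end reads, per the labels' protocols) were aligned and counted by the authors with STAR 2.7.3a and RSEM 1.3.3 on GRCh38 after trimming in Trim Galore 0.6.5, per the submitters' processing notes. Expected counts per gene make up the table the authors deposited, with an annotation release and strand setting not given in the sources used here. A further 210 library columns matched no sample analysed here and were not used. Expected counts were rounded, genes filtered with filterByExpr (minimum count 10, minimum total 15; 18568 kept), scaled by TMM and fitted in edgeR 4.0.16 (R 4.3.3) with 25 group means over 59 libraries (34 residual degrees of freedom). Quasi-likelihood tests were adjusted by Benjamini-Hochberg over all genes of a comparison and called below 0.05. Levels are TMM-scaled CPM; for marker genes, antisense genes and RNAs without a poly(A) tail they are CPM of the library total. Gene symbols, positions and sequences came from GENCODE release 29, which held 94.0% of the identifiers.

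The members and gene lists were chosen with earlier results of these data known. Of the 38 comparisons 35 were planned and 3 added after seeing the data. Named are the called members of each comparison and, in every library of 5 groups of samples, MT-RNR1, MT-RNR2, MT-ND5, MT-CYB and MT-ND6; of nuclear lists, at most 4 called genes. Replicate pairs differed beyond counting error (chi-square per degree of freedom 2.11 to 226.5 over 46 pairs), so none was merged. Replicate numbers paired the libraries only in Citri Unshius Pericarpium high against low (correlations of deviations 0.122 to 0.235), a hint from the data; the replicate block left 0 mitochondrial calls there. The scripts were tested on simulated data. Alternatives were DESeq2 1.42.0, other scaling, no filter, fits of fewer samples, a replicate block and leaving out libraries.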

Additional observations from a re-analysis of the deposited data

Results flagged for a closer look

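The change from low to high dose differed between Coptidis Rhizoma and Zizyphi Fructus for 3 mitochondrial mRNAs, by a test of the difference itself in edgeR. The log2 difference of the 2 changes was -3.26 for MT-ND5, -2.78 for MT-ND6 and -2.52 for MT-CYB. The contrast was added after seeing the data. The calls of MT-ND6 and MT-CYB were each lost in 8 of 16 alternatives, and that of MT-ND5 in 0 of 16. In Zizyphi Fructus none of the 15 genes was called between doses, in edgeR or DESeq2, and 0 had an unadjusted p below 0.05. The doses are not matched in amount between the extracts. No group held the 4 or more libraries that a search for single outlying libraries needs.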

How the results depend on the processing

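MT-RNR1 kept its direction and its call in every alternative of the Coptidis Rhizoma comparisons with vehicle and Zizyphi Fructus and of both Banhasasim-tang comparisons, and MT-ND5, MT-ND6 and MT-CYB kept theirs at the low dose of Coptidis Rhizoma against vehicle. No result reversed. DESeq2 size factors and scaling without mitochondrial genes moved no count of called mitochondrial genes by over 1.5 times, nor did the replicate block, which gave 7 for Coptidis Rhizoma high against vehicle; replicate numbers otherwise did not pair the libraries. For the counts that moved, the cause was not tested. Where a count below has no share of all genes beside it, it cannot be set against that share.

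With no filter on low counts, the counts against vehicle were 14, 13 and 12 for the high, medium and low dose of Coptidis Rhizoma, 4, 1 and 1 for Bupleuri Radix, 1, 4 and 2 for Cimicifugae Rhizoma, 1 and 2 for the medium and low dose of Citri Unshius Pericarpium, 2 for Aconiti Lateralis Radix Preparata at the high dose and 8 for Banhasasim-tang. They were 14, 13 and 9 for Coptidis Rhizoma against Zizyphi Fructus, 5 for high against medium, 6 for medium against low and 5 for the contrast of dose changes in these 2 extracts. They were 8 for Banhasasim-tang against Yijung-tang, 4 for Citri Unshius Pericarpium high against low, 1 for Cimicifugae Rhizoma high against low and 2 between these 2 extracts at the high dose.

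Fits of only the extracts compared are given with the percent of all their genes called. Against vehicle at the high, medium and low dose the counts were 14, 13 and 13 for Coptidis Rhizoma (44%, 26.7% and 13.9%). They were 13, 13 and 12 for Bupleuri Radix (26.2%, 12.5% and 12.2%) and 6, 4 and 5 for Aconiti Lateralis Radix Preparata (22.9%, 42% and 7.28%). Yijung-tang had 4, 4 and 2 (18.5%, 1.69% and 3.03%) and Banhasasim-tang 8 (26.7%). Within Coptidis Rhizoma the counts were 12 for high against low (27.3%), 7 for high against medium (10%) and 12 for medium against low (3.97%). Against Zizyphi Fructus they were 14, 13 and 11 (33.3%, 16.8% and 4.34%), with 9 for the contrast of dose changes (9.7%). High against low gave 1 in Aconiti Lateralis Radix Preparata (12.6%) and 2 in Yijung-tang (4.19%), and Banhasasim-tang against Yijung-tang gave 12 (9.67%). With only the library set and a replicate block, the counts were 11, 6 and 7 for the 3 dose pairs of Coptidis Rhizoma in that order, 14, 13 and 11 against Zizyphi Fructus and 10 for the contrast, and high against low gave 1 in Aconiti Lateralis Radix Preparata and 2 in Yijung-tang.

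Without the 4 libraries of high antisense counts, Coptidis Rhizoma had 13, 11 and 8 against vehicle (27.9%, 12.4% and 3.52% of all genes called). It had 13, 12 and 8 against Zizyphi Fructus (20.5%, 7.61% and 1.03%), 2 for medium against low (0.224%) and 5 for the contrast (2.67%). Against vehicle, Banhasasim-tang had 8 (16.9%) and Bupleuri Radix at the high dose 2 (14.3%). DESeq2 gave 11 for the high dose of Coptidis Rhizoma, 2 for medium against low and 1 for Citri Unshius Pericarpium high against low.

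Leaving out single libraries, where a lone sample is assumed to vary like the other groups, gave 2 to 6 and 2 to 5 calls for Coptidis Rhizoma high and medium against vehicle and 2 to 3, 2 to 4 and 3 to 4 against Zizyphi Fructus from high to low. It gave 3 to 5 for high against low, 0 to 2 for high against medium, 0 for medium against low and 1 for the contrast. It gave 3 to 6 for Banhasasim-tang against Yijung-tang, 0 to 6 for Citri Unshius Pericarpium high against low, 0 to 1 for its medium dose against vehicle and 0 to 4 against Cimicifugae Rhizoma.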
